A study of Mus musculus with 2 samples.

Results

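MicroRNA genes known as markers of liver, kidney and gut were measured in a tissue that lies beside these organs, the adrenal gland. The set counts 7 of the 2202 miRNA genes in the tables: Mir122, Mir192, Mir194-2, Mir194-1, Mir215, Mir802 and Mir204. They were chosen by name as markers of neighbouring tissue, with the counts of both libraries already known, so their levels and ratios are described without a test. The libraries come from adrenal glands of female B6CASTF1/J mice, the F1 hybrid of C57BL/6J and CAST/EiJ, at an age of 14 days, with no treatment named in the labels. All material belongs to 1 group of 2 libraries, labelled biological replicates 1 and 2. For replicate 1 the label names 3 females and for replicate 2 a single numbered animal, so a pool may stand on 1 side only, although both carry the same donor identifier. With 1 library on each side, the difference between the libraries has no replicate check, and all intervals below cover counting error only. The reads carry no molecular identifiers, so amplified copies count as separate reads and the intervals may be too narrow.

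MicroRNAs are cut from hairpin precursors and guide a silencing complex to messenger RNAs, mainly through the seed, bases 2 to 8 of the mature strand. Mir122 is the dominant miRNA of hepatocytes, where it acts on cholesterol and lipid metabolism. Mir192, Mir194 and Mir215 are typical of the epithelium of gut, kidney and liver and are made from a pair of clusters, each joining 1 gene of the miR-192 and miR-215 family with 1 copy of miR-194. Mir802 is found in liver, kidney and intestine. Mir204 lies in Trpm3, a cation channel gene, and is known from kidney, choroid plexus and the pigment epithelium of the eye.

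The mature strands show which members can act on the same messenger RNAs and which cannot be counted apart. Mir122 has no entry in the RefSeq table used, so its strand is not shown and was not sought in other hairpins. Sequences are from RefSeq (GRCm38.p6), whose table holds the other 6 of the 7 members, all at the same positions as in GENCODE M21 on mm10. They run 5′ to 3′ with the seed in capitals, and Mir211, the seed relative of Mir204, is added for comparison.
miR-192-5p: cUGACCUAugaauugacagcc
miR-215-5p: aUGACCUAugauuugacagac
miR-194-5p: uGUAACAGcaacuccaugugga
miR-802-5p: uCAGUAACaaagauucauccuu
miR-204-5p: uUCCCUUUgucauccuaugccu
miR-211-5p: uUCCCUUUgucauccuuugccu
The strands of Mir192 and Mir215 shared the seed and 18 of 21 bases, and differed by C1A, A12U and C20A, counted from the 5′ end with the base of miR-192-5p first. Those of Mir204 and Mir211 shared 21 of 22 bases and differed by A17U, with the base of miR-204-5p first. Each of these 4 strands occurred in full in 1 annotated hairpin, its own, as did that of Mir802.

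The strand miR-194-5p stood in full in 2 annotated hairpins, Mir194-1 and Mir194-2, shown here with that shared stretch of 22 bases in capitals.
Mir194-1: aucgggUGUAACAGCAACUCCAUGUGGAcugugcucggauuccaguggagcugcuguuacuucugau
Mir194-2: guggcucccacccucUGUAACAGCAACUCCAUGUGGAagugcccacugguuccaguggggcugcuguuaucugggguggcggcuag
A read that equals the shared strand maps to both genes, and the deposited counts leave out reads that map to several places, which were 28.0% of all reads in replicate 1 and 25.0% in replicate 2. Counts of either gene can therefore come only from reads that tell the hairpins apart, such as reads of the opposite arm or reads that run past the shared stretch. The opposite arm differs between the genes by A8G, C19U, U20C and C22G, with the base of miR-194-1-3p first. The values of Mir194-1 and Mir194-2 are thus uncertain and leave out what the shared strand contributed.

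Together the 7 genes had 11548 counts in replicate 1 and 1086139 in replicate 2. This was 0.304% of the miRNA counts of replicate 1 (Wilson 95% interval 0.299 to 0.310) and 21.6% of those of replicate 2 (21.5 to 21.6), with a mean of 10.9% ± 15.0 (SD, n = 2). The mean rests on replicate 2. Mir122 made up 95.2% of the members' counts in replicate 1 and 99.4% in replicate 2. The other 6 members had 552 and 6098 counts, a share of 0.0145% in replicate 1 (0.0134 to 0.0158) and 0.121% in replicate 2 (0.118 to 0.124). In bulk tissue, more cells of a type and more RNA per cell cannot be told apart.

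Depth did not limit the leading members. Replicate 1 held 3797107 counts on miRNA genes and replicate 2 held 5034257, so 3 counts stood for 0.790 and 0.596 CPM (CPM scales the counts of each library to a common total over its miRNA genes). Ratios are given as log2 of replicate 2 over replicate 1 with TMM scaling, which sets the bulk of the genes level, and with 0.5 counts added to each value. A minimum of 10 counts in each library was met by 4 of the 7 members, Mir122, Mir192, Mir194-2 and Mir204. Among them 3 had a log2 ratio of at least 1, which is a difference of at least 2-fold, and 0 had one of -1 or less. Over all 358 genes with at least 10 counts in each library, 9.22% were higher and 8.66% lower in replicate 2 by the same limit, with a median log2 ratio of -0.06. The members were chosen with this contrast known, so nothing is read from their share. With library totals in place of TMM the median of all genes became -0.49.

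**Figure D1:**
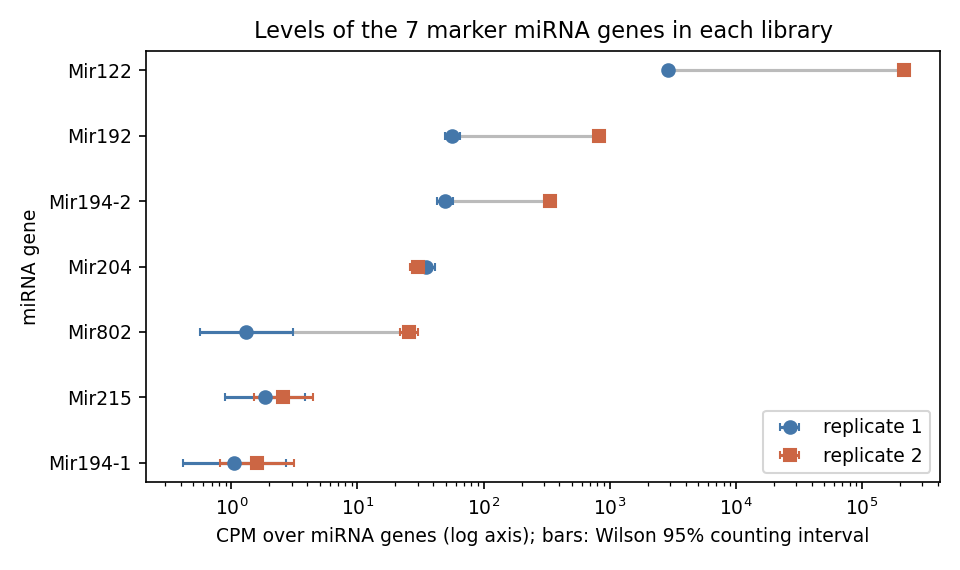
CPM of each member in replicate 1 (circles) and replicate 2 (squares) on a log axis, with Wilson 95% counting intervals as bars. Mir122, Mir192, Mir194-2 and Mir802 were far apart between the libraries, while the intervals of Mir204, Mir215 and Mir194-1 overlapped.

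On mm10, Mir122 (ENSMUSG00000065402.1) occupies 65248861 to 65248926 of chromosome 18, plus strand, and overlaps an exon of AC157910.3, which makes a long noncoding RNA. It had 10996 counts in replicate 1, or 2896 CPM, and 1080041 counts in replicate 2, or 214538 CPM. Both libraries held it well above the counting limit, and it ranked 43 among the genes of replicate 1 and 1 in replicate 2. Its mean was 108717 CPM with an SD of 149654 (n = 2), a spread larger than the mean itself. The fold between the libraries was 99.8 (95% counting interval 97.9 to 102), the largest of the 358 genes under TMM scaling. Neither for Mir122 nor for the other 6 members did any count fall on the opposite strand.

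The cluster on chromosome 19 was the other abundant source of marker counts. Mir192 (ENSMUSG00000065523.1, 6264844 to 6264932) lies 116 bases after Mir194-2 (ENSMUSG00000065582.1, 6264643 to 6264728), both on the plus strand and outside any annotated gene of another kind. Mir192 had 215 counts in replicate 1, or 56.6 CPM, and 4116 in replicate 2, or 818 CPM (437 ± 538, SD, n = 2). Its place in the ranking moved from 217 to 79. Mir194-2 had 188 counts in replicate 1, or 49.5 CPM, and 1679 in replicate 2, or 334 CPM (192 ± 201). Its place moved from 224 to 120. Replicate 2 was the higher library for both neighbours.

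The neighbours did not differ between the libraries by the same factor. Mir192 was 19.4-fold higher in replicate 2 (95% counting interval 17.0 to 22.4), and Mir194-2 was 9.05-fold higher (7.80 to 10.6). These intervals do not overlap. Within a library no scaling enters: Mir192 made up 53.3% of the pair's counts in replicate 1 (exact Clopper-Pearson 95% interval 48.3 to 58.3) and 71.0% in replicate 2 (69.8 to 72.2). The balance of the pair was thus nearly even in replicate 1 and tilted to Mir192 in replicate 2, beyond counting error. Part of the Mir194-2 reads are missing in both libraries through the shared strand shown above. Whether that missing part was equal in the libraries was not tested. Summed, the pair stood at 106 and 1151 CPM, a log2 ratio of 3.87 (3.72 to 4.02).

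The sister cluster on chromosome 1 was close to the counting limit in both libraries. Mir194-1 (ENSMUSG00000065581.1, 185313319 to 185313385) and Mir215 (ENSMUSG00000065562.1, 185313581 to 185313692) lie on the plus strand within 2010103J01Rik, another long noncoding gene. Mir194-1 is in an intron of it and Mir215 in an exon, and both are opposite an intron of Iars2, the gene of a mitochondrial isoleucyl-tRNA synthetase. Mir194-1 had 4 counts in replicate 1 and 8 in replicate 2, or 1.05 and 1.59 CPM. Mir215 had 7 and 13 counts, or 1.84 and 2.58 CPM. Both genes were low in both libraries, and their counting intervals overlapped between them. The pair's 11 and 21 counts gave a log2 ratio of 0.93 with an interval of -0.16 to 2.16. A difference between the libraries was not detectable at this depth, and neither gene reached 10 counts in both.

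The seed relatives Mir192 and Mir215 therefore stood at very different levels. Mir192 had 30.7 counts for each count of Mir215 in replicate 1 and 317 in replicate 2. Of the summed counts of both genes, Mir192 supplied 96.8% in replicate 1 (exact 95% interval 93.6 to 98.7) and 99.7% in replicate 2 (99.5 to 99.8). Counts are per hairpin and do not tell its arms apart, so these are not shares of the strand with the common seed. The mature strand of Mir215 stood in no other annotated hairpin. Of the reads that tell the miR-194 genes apart, Mir194-2 supplied 97.9% in replicate 1 (94.8 to 99.4) and 99.5% in replicate 2 (99.1 to 99.8).

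Mir802 (ENSMUSG00000076457.1) is intergenic, at 93369720 to 93369816 of chromosome 16, plus strand. It had 5 counts in replicate 1, or 1.32 CPM (Wilson 95% interval 0.562 to 3.08), and 129 in replicate 2, or 25.6 CPM (21.6 to 30.4). It was thus near the counting limit in replicate 1 and clearly present in replicate 2, where its rank was 247 against 426. The mean was 13.5 ± 17.2 CPM (SD, n = 2). The fold of 23.9 has a wide interval, 10.9 to 82.1, because of the 5 counts on 1 side. Mir802 missed the minimum of 10 counts in each library and is not among the genes counted as higher, although its interval lies wholly above 2-fold.

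Mir204 (ENSMUSG00000065507.3) lies in an intron of Trpm3, at 22750605 to 22750672 of chromosome 19, plus strand. It had 133 counts in replicate 1, or 35.0 CPM (29.6 to 41.5), and 153 in replicate 2, or 30.4 CPM (25.9 to 35.6). The libraries lay close together, with a mean of 32.7 ± 3.28 CPM (SD, n = 2) and ranks of 244 and 232. Its log2 ratio was 0.22 with TMM scaling, with a counting interval of -0.12 to 0.57. The direction is not set by the data, since the ratio was -0.21 with library totals. Its relative Mir211, in the melanocyte-linked gene Trpm1, had 3 and 4 counts, and Mir7670, another gene with that seed, had 1 count in each library. Mir204 thus supplied 97.8% and 97.5% of the counts of the pair Mir204 and Mir211.

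**Figure D2:**
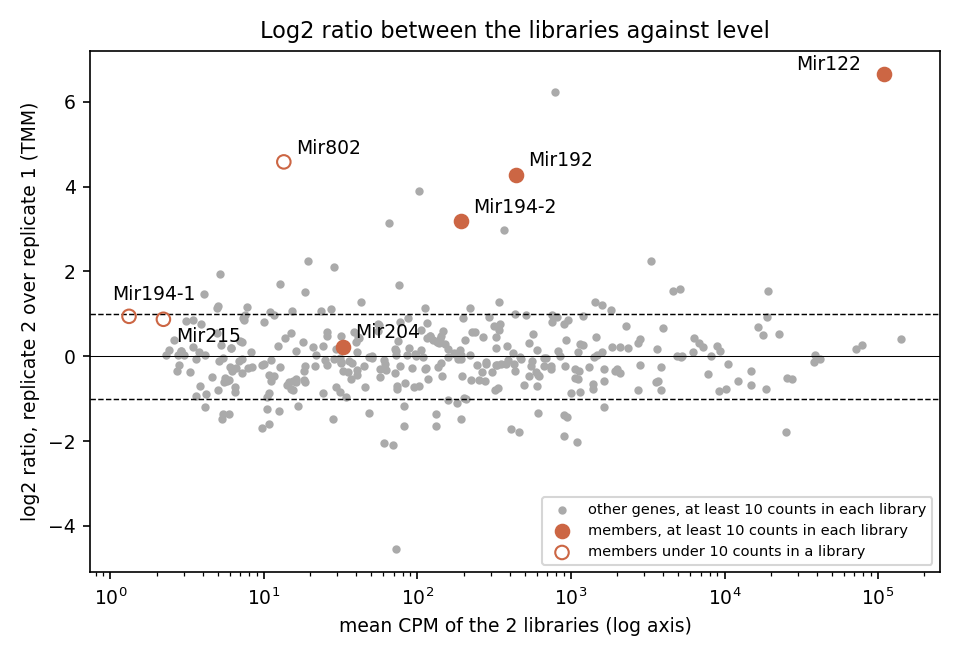
Log2 ratio of replicate 2 over replicate 1 (TMM scaling) against mean CPM on a log axis. Grey points are other genes with at least 10 counts in each library, filled points the 4 members that reached this minimum, open points the 3 that did not, and dashed lines mark log2 ratios of -1 and 1. Mir122 stands at 6.64, Mir192 at 4.28 and Mir194-2 at 3.18, while Mir204 lies among the bulk of the genes at 0.22.

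Ordered by mean CPM, the members ran from Mir122 through Mir192, Mir194-2, Mir204, Mir802 and Mir215 to Mir194-1. A read of a mature miRNA spans the whole strand, so CPM is not divided by hairpin length here. Within replicate 1 the counting intervals of Mir192 (49.5 to 64.7 CPM) and Mir194-2 (42.9 to 57.1) overlapped, as did those of Mir802, Mir215 and Mir194-1. Within replicate 2 the intervals of Mir204 (25.9 to 35.6) and Mir802 (21.6 to 30.4) overlapped, and so did those of Mir215 and Mir194-1. With 2 libraries, the SD of Mir122, Mir192, Mir194-2 and Mir802 exceeded their mean, so the mean describes neither library.

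The counts of the other members can also be set against those of Mir122 inside each library, which needs no scaling. Mir122 had the largest ratio of the 358 genes between the libraries, so any other of these genes is lower per Mir122 count in replicate 2, and that direction says nothing about the members. The values are the same contrast in another unit. Mir192 had 19.6 counts for every 1000 of Mir122 in replicate 1 (exact 95% interval 17.0 to 22.4) and 3.81 in replicate 2 (3.70 to 3.93). That is 5.13-fold more per Mir122 count in replicate 1. Mir194-2 had 17.1 (14.7 to 19.7) and 1.55 (1.48 to 1.63). Mir802, with 0.455 (0.148 to 1.06) and 0.119 (0.0997 to 0.142), had a fold of 3.81, which rests on 5 counts in replicate 1 and is not set apart from that of Mir192 by counting error. Mir204, the member that hardly differed between the libraries in CPM, had 12.1 (10.1 to 14.4) and 0.142 (0.120 to 0.166), a fold of 85.4. Mir215 and Mir194-1 had 0.637 and 0.364 in replicate 1 and 0.0120 and 0.00741 in replicate 2.

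**Figure D3:**
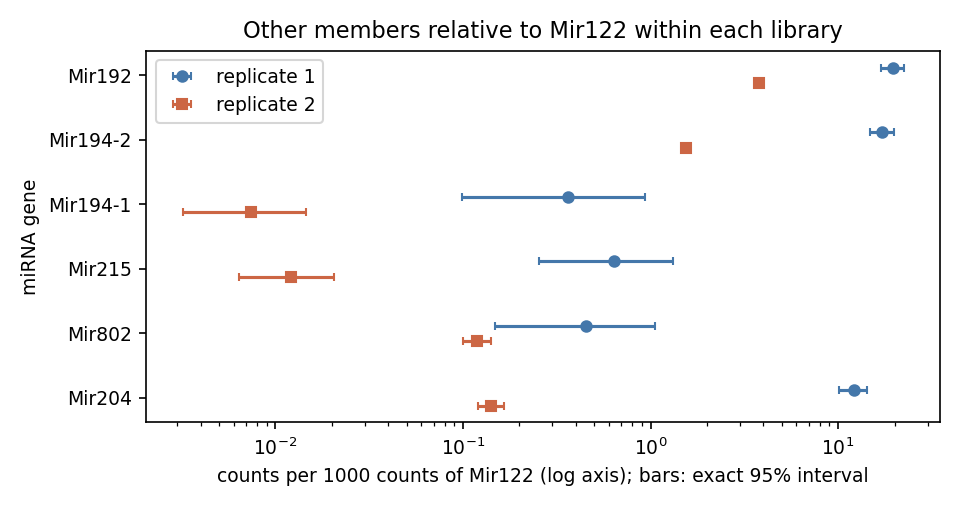
Counts of the other 6 members for every 1000 counts of Mir122 in replicate 1 (circles) and replicate 2 (squares), on a log axis with exact 95% intervals. Every member sits lower in replicate 2, as any gene must whose ratio between the libraries is below that of Mir122, with folds of 3.81 for Mir802 and 85.4 for Mir204.

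The genes whose ratio lay nearest to that of a member, among 257 other genes with at least 10 counts in each library and a mean of at least 100, came from several loci. Likeness here is the distance between log2 ratios over 2 libraries, which is a single contrast. Nearest to Mir122 was Mir206, of skeletal muscle, from 106 and 7815 counts, at 6.22, followed at a distance by Mir483 and Mir200b. Nearest to Mir192 was Mir483, in an intron of Igf2, from 230 and 4278 counts, at 4.24 (4.05 to 4.44) against 4.28 for Mir192. Next came Mir200b, at 3.90, and Mir429, both of the epithelial miR-200 family. Nearest to Mir194-2, at 3.18, was Mir429, from 66 and 572 counts, at 3.13 (2.77 to 3.53), before Mir301 at 2.98 (2.83 to 3.13) and Mir200b.

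Other genes of the liver list, drawn up from general knowledge with results of these data known, did not share the large ratios of the members. Mir148a, abundant in liver and in many other tissues, had 2319 counts in replicate 1 and 4509 in replicate 2, with a log2 ratio of 0.98 under TMM scaling and 1.04 with DESeq2 size factors, where it passed 2-fold. Mir101b, with 5049 and 4030 counts, stood at -0.30, and Mir1948 had 8 counts in each library. The entry Mir885 matched no gene of the tables. Including the members, 3 of the 5 liver genes that met the minimum were higher under TMM scaling and 0 lower, and the list's summed level was 4946 CPM in replicate 1 and 217413 in replicate 2. Without the members it was 1943 and 1698 CPM. Sums in CPM are not TMM scaled, here and for the lists below. Mir122 took 21.5% of the miRNA counts of replicate 2, which lowers the CPM of every other gene there. Under TMM scaling, Mir148a and Mir101b had a median log2 ratio of 0.34.

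On the kidney list, the 6 other genes that met the minimum all lay within 2-fold under TMM scaling, DESeq2 size factors and library totals. Their log2 ratios ran from -0.54 for Mir10a to 0.90 for Mir30c-2, with a median of -0.03 beside -0.06 for all genes. Among them Mir30a, known from kidney tubules and many other cells, had 36006 and 41774 counts. The 2 kidney list genes that were higher, Mir192 and Mir194-2, are members shared with the liver and gut lists, while Mir204 was within 2-fold. Summed without the members, the kidney list stood at 46525 and 27356 CPM, of which Mir10a alone held 36629 and 18641.

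On the gut list the 6 other genes went both ways. Mir200b, Mir429 and Mir200a, which share 1 locus, were higher in replicate 2, from 64 and 946, 66 and 572, and 28 and 91 counts. Mir31, with 5306 and 2013 counts, and Mir141, with 32 and 11, were lower. The log2 interval of Mir141, -2.65 to -0.49, reached above -1, so its counts do not settle a 2-fold difference. Mir200c lay within 2-fold at -0.73 under TMM scaling but at -1.16 with library totals. Mir147 had 4 and 7 counts. The gut list without the members summed to 1511 and 751 CPM, of which Mir31 alone held 1397 and 400.

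Of the lists for further tissues, that for skeletal muscle had the largest relative gap in summed CPM between the libraries, nearly all of it from Mir206. On it, 2 of 8 genes met the minimum, Mir206 and Mir499, and both were higher in replicate 2. Mir499 only just met it, with 10 and 39 counts, and its log2 interval of 0.96 to 3.15 reached below 1. The muscle list summed to 31.3 CPM in replicate 1 and 1568 in replicate 2, of which Mir206 held 27.9 and 1552. Mir1a-1, Mir133a-1 and Mir133a-2, numbered copies with similar hairpins, were at 0 in both libraries. Reads that map to several copies are left out of the counts, so these values of 0 do not show that the miRNAs were absent. Of the exocrine pancreas list, Mir216b and Mir216c were at 0 in both libraries, Mir216a had 0 and 2 counts and Mir217 had 9 and 9, so that Mir802 made up 25.6 of its 27.8 CPM in replicate 2. All 5 genes of the list for fat around the gland lay within 2-fold under TMM scaling, and Mir365-1 passed it at 1.03 with DESeq2 size factors. The fat list summed to 79375 and 67083 CPM, of which Mir378a alone held 77614 and 65234. Of 6 blood genes, Mir451a and Mir142 were lower in replicate 2 and 4 lay within 2-fold, and their summed level was 4144 and 1439 CPM. The part of other tissues in the members' levels was not tested.

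For the labelled tissue, 12 miRNA genes studied in adrenal and steroid-producing cells were read, none of which marks the adrenal alone. They were chosen with results of these data known and have no other tissue beside them, so they do not test the label. All 12 met the minimum. Under TMM scaling 4 were higher in replicate 2 (Mir214, Mir125a, Mir383 and Mir483) and 0 lower, with a median log2 ratio of 0.03. With library totals 3 were higher and 2 lower, with a median of -0.40. Their summed level was 41934 CPM in replicate 1 and 29772 in replicate 2, beside 3041 and 215750 CPM for the 7 marker genes. Of the adrenal sum, Mir375 alone held 33797 and 17616 CPM. The marker sum in replicate 2 was Mir122 for 99.4%, and the other 6 members summed to 145 and 1211 CPM. These sums differ in their number of genes, and the adrenal sum keeps Mir375, so they do not rank the tissues. Numbered copies on this and the other lists, such as Mir125b-1 and Mir125b-2, can lack reads that map to several places. Endothelial Mir126a stood at 142267 and 140629 CPM, with a log2 ratio of 0.41 under TMM scaling.

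**Figure D4:**
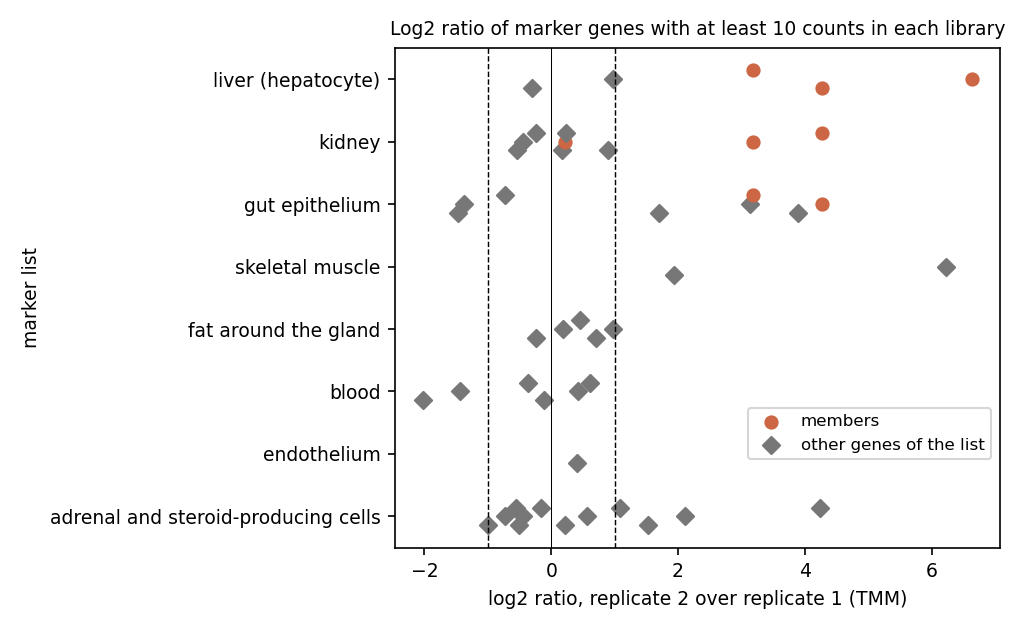
Log2 ratio of replicate 2 over replicate 1 (TMM scaling) for each gene with at least 10 counts in each library, by marker list, with members as circles, other genes as diamonds, and dashed lines at -1 and 1. Genes on several lists appear in each. Members reach 6.64 on the liver list, while the other liver and kidney genes lie between -0.54 and 0.98.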

How the data were processed

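Small RNA of 2 adrenal libraries was used. The values the authors deposited are raw counts for each miRNA gene, on mm10 with GENCODE M21 per the text files beside the tables. Aligner, counter and trimming: not given in the sources used here. Without a header, the 3 count columns were read from their values as unstranded, own strand (used) and opposite strand. The 4 summary lines (unmapped, several places, no feature, ambiguous) were kept out of the library totals. Unmapped were 26.9% and 23.9% of the reads of replicates 1 and 2, and on no feature 9.65% and 6.12%. The 7 members, the 9 marker lists and the rules were chosen with earlier results of these data known. The rule for named genes took all members, list genes, seed relatives and, for each member past 2-fold, the 3 other genes of nearest log2 ratio. Some low list genes were named after their values were seen.

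CPM were computed over all 2202 genes. TMM factors (edgeR 4.0.16; 1.16 and 0.862) came from the 358 genes with at least 10 counts in each library. Log2 ratios used a prior count of 0.5, with intervals turned from the exact 95% Clopper-Pearson bounds of each count pair. No p-value is given, since the design has 1 library on each side. A chi-square statistic of 1230149.1 over 423 genes showed that the libraries are not 1 library deposited in duplicate. The log2 ratio and its interval were tested on simulated data. Alternatives were DESeq2 1.42.0 size factors, library totals, other count minimums, the unstranded column, a prior count of 5, other totals for the share, and leaving out each replicate. R 4.3.3 and Python 3.11.15 were used, the latter with scipy 1.17.1, pandas 2.3.3, numpy 2.4.6 and matplotlib 3.10.9.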

Additional observations from a re-analysis of the deposited data

How the results depend on the processing

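The count of 3 members past 2-fold higher and 0 lower held with DESeq2 size factors, library totals, the unstranded column, a prior count of 5 and a minimum of 100 counts, and became 4 and 0 with no count minimum, when Mir802 entered. The counts over all genes moved more. From 33 higher and 31 lower they became 19 and 79 with library totals, 177 and 181 of 791 genes with no count minimum, and 18 and 19 of 246 genes with at least 100 counts in each library, where fewer genes were tested. Library totals lowered every member's log2 ratio by 0.43, and this turned Mir204 from 0.22 to -0.21. Over all alternatives the log2 ratio ranged from 6.21 to 6.70 for Mir122, from 3.85 to 4.33 for Mir192 and from 2.75 to 3.23 for Mir194-2. For Mir802 it ranged from 3.77, with a prior count of 5, to 4.64. In the unstranded column the members' counts were unchanged and only the totals were smaller, 2837768 in replicate 1 and 3872233 in replicate 2. The members' mean share of 10.9% was 14.2% in that column, 4.91% of all reads, and 0.0844% with Mir122 left out of members and totals. With 1 replicate left out it was 0.304% to 21.6%. The share of Mir192 within its pair was the same in the unstranded column. No paired analysis was possible because the series has 1 group. Depth limits Mir194-1, Mir215 and, in replicate 1, Mir802.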
